A study of Homo sapiens with 15 samples.

Results

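The genes described here are regulators and readouts of the epithelial to mesenchymal transition (EMT), chosen by name from the deposited gene table: the transcription factor genes SNAI1, SNAI2, ZEB1 and TCF4, the adhesion gene CDH1, the cytoskeletal and matrix genes VIM and FN1, and the epithelial regulators ESRP1, ESRP2 and GRHL2. Of these 10 genes, 9 stand among the 22705 genes analysed, and SNAI2 was not analysed here. The cells are DLD1, a line from a human colorectal carcinoma, and their poly(A) RNA was sequenced in 15 libraries that form 5 groups of 3. The KO group is a DLD1 line with USP7 knocked out that carries plasmids for a doxycycline-inducible GFP-USP7 (pTREG-BI-USP7, linearized and selected in G418) and the Tet-ON activator pEF1α-Tet3G, grown without doxycycline. The day 1, day 3 and day 9 groups are the same line given 1 µg/ml doxycycline for 1, 3 or 9 days, and the WT group is untreated parental DLD1. The KO line and all doxycycline groups share the knockout, the plasmids and the G418 selection, which WT cells lack, so that in any comparison with WT the loss of USP7 and the making of the line cannot be told apart. Doxycycline and USP7 likewise come together in the treated groups, since WT cells with doxycycline were not analysed here. The sources used here do not say whether the KO line is a single clone. USP7 is a deubiquitinase, an enzyme that removes ubiquitin from other proteins.

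EMT is a change of cell state in which epithelial cells lose their cell to cell junctions and gain motility. The zinc finger proteins SNAI1 (Snail), SNAI2 (Slug) and ZEB1 bind E-box sequences and repress epithelial genes, first among them CDH1, which encodes E-cadherin of the adherens junction. TCF4 encodes the basic helix-loop-helix E protein E2-2, an EMT inducer in cultured dog kidney epithelial cells, and is a different gene from TCF7L2, the Wnt pathway factor that colorectal cancer work also calls TCF4. GRHL2 is a transcription factor that activates CDH1 and other junction genes, and ESRP1 and ESRP2 are RNA binding proteins that set the epithelial splice forms of transcripts such as CD44 and FGFR2. VIM (vimentin) and FN1 (fibronectin) are the readouts most used for the mesenchymal state.

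Total normalized counts lay between 14741094 and 15347043 per library. Values are counts divided by a size factor for each library, without gene length, so that levels are compared between groups and never between genes. A fold change is a difference in log2(value + 1), a scale that understates the change of low genes, and a gene was called changed at an adjusted p under 0.05 (limma, Benjamini-Hochberg over 15134 genes). USP7 averaged 1389.3 ± 17.6 normalized counts in KO, 8238.9 ± 375.3 at day 1, 7827.9 ± 341.2 at day 3, 4787.9 ± 335.7 at day 9 and 3391.8 ± 25.4 in WT (SD, n = 3 each), so transcript was still counted in KO cells and the transgene and the endogenous gene are not separated. All 5 epithelial markers (EPCAM, KRT8, KRT18, KRT19, CLDN7) were in the table and summed to 129118.1 to 134723.8 in KO, 105215.3 to 124915.4 at day 1, 118525.2 to 130278.3 at day 3, 85022.6 to 91559.4 at day 9 and 82476.8 to 84912.4 in WT. Of 8 fibroblast markers only COL1A1 and PDGFRB were in the table, at a summed 58.8 to 97.5 in KO, 88.6 to 130.2 at day 1, 62.6 to 82.2 at day 3, 72.4 to 84.6 at day 9 and 64.8 to 80.6 in WT. Of 6 leukocyte markers CD14 and CD68 were present, at a summed 37.9 to 48.8 in KO and 17.0 to 25.9 in WT, and of 4 endothelial markers VWF alone, at 37.8 to 50.8 in KO and 21.9 to 31.0 in WT. Day 1 replicate 1 stood apart: its squared differences from the other day 1 libraries had medians 10.75 and 7.14 times those of counting noise. The ratio was 1.36 between those libraries and 1.14 to 3.08 in the other groups.

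The column names of the deposited table carry 1 project code for the 9 libraries of KO, day 1 and WT, and another for the 6 libraries of days 3 and 9. Genes that were silent in the KO line separated these 2 sets. At 0 in all KO libraries and at 50 or more in every WT library stood 46 genes, of which 40 were at 0 in all day 1 libraries as well. Their median level was 21.2% of WT at day 3 (quartiles 20.7 to 23.8%) and 21.4% at day 9 (quartiles 20.8 to 24.3%), with 35 genes at day 3 and 33 at day 9 between 18 and 27% and 5 genes at 0 on each day. Over the 41 of these genes above 0 in all 6 libraries of days 3 and 9, the median ratio of variance to mean was 0.163 across those 6 libraries, below the ratio of 1 that counting alone gives, against 0.892 in WT. KLF8, a zinc finger repressor linked to EMT, shows the pattern in single values: it was listed at 0 in every KO and day 1 library, at 11.9 in each of the 6 libraries of days 3 and 9, and at 59.8, 40.0 and 66.6 in WT. The part this has in the results at days 3 and 9 was not tested. In each comparison of day 3 or day 9 with KO or WT, time and project code cannot be told apart. KO against WT, day 1 against KO, day 1 against WT and day 9 against day 3 each lie within 1 code.

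**Figure D1:**
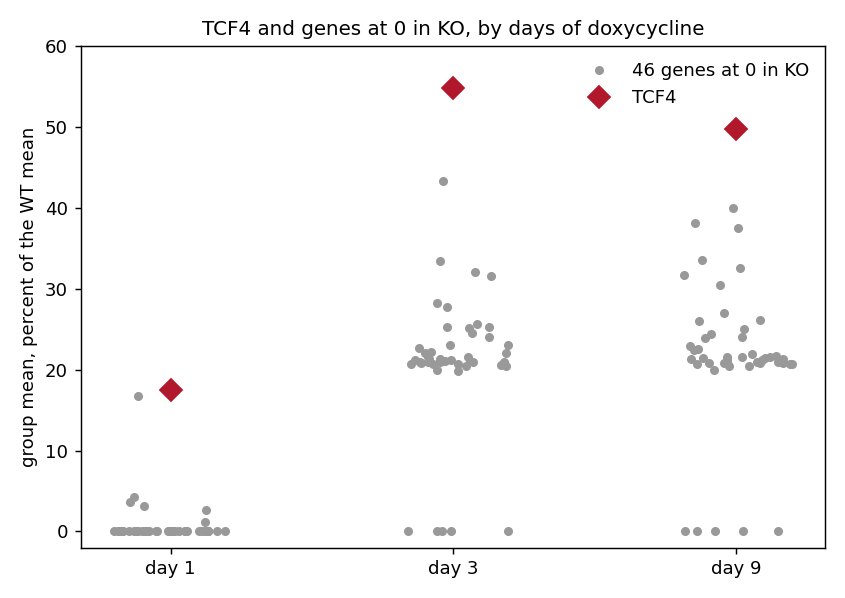
The group mean as a percent of the WT mean (y axis) at day 1, day 3 and day 9 of doxycycline (x axis, points spread sideways) for the 46 genes at 0 in KO (grey circles) and for TCF4 (red diamonds). TCF4 stood at 17.5, 54.8 and 49.7% of WT, and the grey points at days 3 and 9 gather near medians of 21.2 and 21.4%. Unlike the grey genes, TCF4 was above 0 in KO, at 8.28% of WT.

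Against WT, the KO line had more SNAI1, CDH1 and ESRP2 RNA and less TCF4 and ESRP1 RNA, so that the E-cadherin gene and a repressor of it were raised together. In bulk RNA, fewer cells of a kind and less RNA per cell cannot be told apart. Called were 3 members higher and 2 lower, beside 24.8% of all tested genes in each direction, 5 of 9 against a background of 49.7%. At day 1 against KO, 4 of 9 were called, all higher (TCF4, CDH1, GRHL2 and FN1), where 10.9% of genes were called and 4.94% were called higher. At day 3 against KO, TCF4, GRHL2 and CDH1 were higher and SNAI1 lower, with 27.4% of all genes called (13.5% higher and 13.9% lower). At day 9 against KO, TCF4 was higher and CDH1 and SNAI1 were lower, with 25.9% of all genes called (12.4% higher and 13.4% lower). Day 1 against WT gave the same 5 genes in the same directions as KO against WT, beside 40.7% of all genes called (19.9% higher and 20.8% lower), but the comparisons share their WT libraries. Of these calls at day 1, ESRP2 was lost without day 1 replicate 2 (adjusted p = 0.0539) and with only the 2 groups in the fit (adjusted p = 0.064), and ESRP1 was lost without WT replicate 3 (adjusted p = 0.0768). GRHL2, not called there (log2 change 0.12, adjusted p = 0.0537), was called without day 1 replicate 1 (adjusted p = 0.0415). At day 9 against WT, SNAI1, CDH1 and ESRP2 were still higher and TCF4 lower, with 21.8% of all genes called, 10.4% higher and 11.4% lower. Between day 9 and day 3, CDH1 alone was called, lower at day 9, in a comparison that called 7.42% of all genes (3.03% higher and 4.39% lower). The median log2 change over the 9 members was -0.11 in KO against WT, 0.16 at day 1 against KO, 0.09 at day 3 against KO and 0.04 at day 9 against KO, beside medians over all genes of 0.01 or less in size. The comparisons with KO share the KO libraries, and those with WT share the WT libraries.

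**Figure D2:**
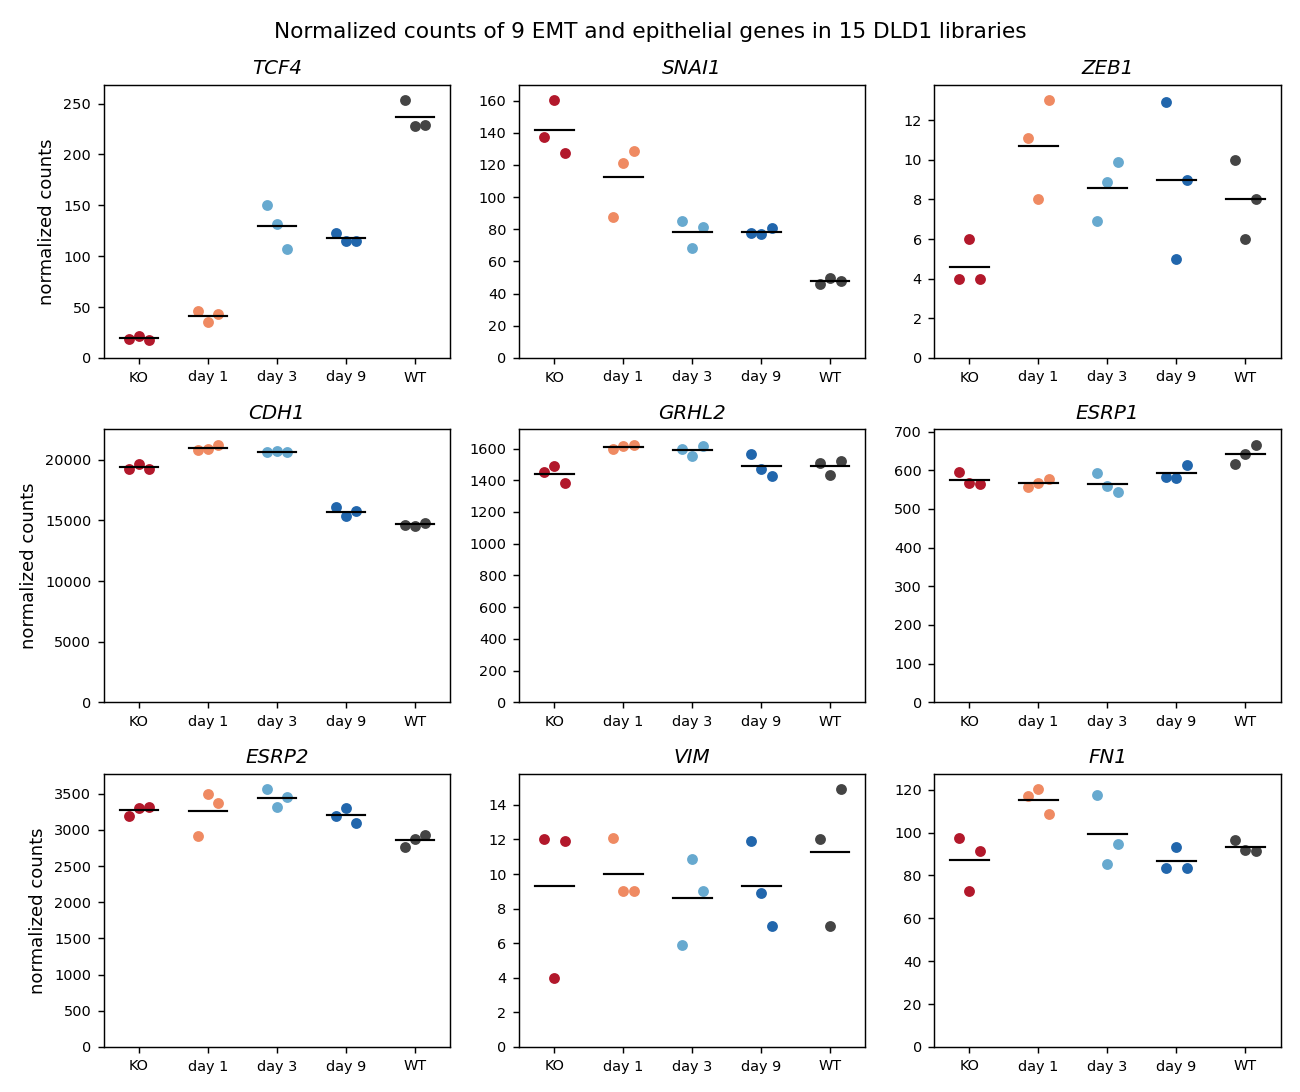
Normalized counts (y axis, from 0, linear and on its own scale in each panel) of the 9 genes in each of the 15 libraries (points), in KO, at days 1, 3 and 9 of doxycycline and in WT, with group means as bars. TCF4 lay at 17.9 to 21.9 in KO and 227.8 to 253.2 in WT, SNAI1 at 127.4 to 160.2 in KO and 45.8 to 49.9 in WT, and CDH1 at 15339.1 to 16070.3 at day 9 and 20612.7 to 20761.3 at day 3.

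TCF4 changed most of the members. RefSeq lists 10 start sites for it with a promoter window (250 bases before to 50 after the start), and a count per gene does not tell which of them is in use. The windows range from CpG rich to CpG poor, and 1 of each kind is shown because the starts of this gene differ so much in the dinucleotide that DNA methylation acts on. Both stretches run 5′ to 3′ on the minus strand of GRCh38.p14, with each CG in capitals. The first, chr18:55589840-55590061, holds 23 CG in 222 bases, and its full window holds 28, where 26.2% of the 35116 windows in the table hold as many or more. The second, chr18:55403996-55404245, lies just upstream of its start and holds 1 CG in 250 bases. The median of all windows is 14.
TCF4 CpG-rich start: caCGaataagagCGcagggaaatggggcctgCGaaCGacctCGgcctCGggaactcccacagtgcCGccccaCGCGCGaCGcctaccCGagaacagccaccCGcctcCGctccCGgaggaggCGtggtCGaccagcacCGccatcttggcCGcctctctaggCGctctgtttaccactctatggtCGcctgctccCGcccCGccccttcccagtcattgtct
TCF4 CpG-poor start: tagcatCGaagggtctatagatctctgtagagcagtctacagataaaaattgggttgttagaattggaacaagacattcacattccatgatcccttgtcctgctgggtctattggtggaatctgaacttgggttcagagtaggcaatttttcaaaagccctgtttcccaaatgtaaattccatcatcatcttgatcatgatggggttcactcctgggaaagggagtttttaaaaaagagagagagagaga
Neither E-box form that the SNAI and ZEB proteins bind best (CACCTG or its reverse complement CAGGTG, both strands searched) is found in any of the 10 windows, while 20.6% of all windows hold it.

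TCF4 had 18.9, 21.9 and 17.9 normalized counts in the KO libraries. At day 1 the values were 46.3, 35.0 and 42.9, at day 3 they were 150.5, 131.2 and 107.4, and at day 9 they were 122.4, 115.0 and 115.4. WT libraries had 253.2, 227.8 and 228.8. The order of the group means was KO, day 1, day 9, day 3 and WT, and among these only days 3 and 9 overlapped. TCF4 was 0.0865 times the WT level in KO (log2 change -3.53, SE 0.14, adjusted p = 1.51e-14). One day of doxycycline put it at 2.05 times the KO level (log2 change 1.04, SE 0.14, adjusted p = 4.89e-05), a comparison within 1 project code. At day 3 it was 6.31 times the KO level (log2 change 2.66, SE 0.14, adjusted p = 7.03e-12) and at day 9 it was 5.78 times that level (log2 change 2.53, adjusted p = 1.3e-11). Day 9 differed from day 3 by -0.13 (95% interval -0.41 to 0.16, adjusted p = 0.637). After 9 days TCF4 was still lower than in WT, by a log2 change of -1.0 (adjusted p = 1.79e-05). As a share of the WT mean it stood at 8.28% in KO, 17.5% at day 1, 54.8% at day 3 and 49.7% at day 9. TCF4 was above 0 in KO, so these shares cannot be compared directly with those of the KO-silent genes. The part that the pattern of those genes has in the TCF4 values at days 3 and 9 was not tested.

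SNAI1, the gene of the Snail repressor, was highest in KO and lowest in WT. It had 137.5, 160.2 and 127.4 normalized counts in KO and 87.6, 121.2 and 128.6 at day 1. At day 3 it had 85.1, 68.6 and 81.6, at day 9 it had 77.6, 77.3 and 80.6, and in WT it had 45.8, 49.9 and 47.7. The KO and WT libraries did not overlap, the day 1 libraries overlapped those of KO, and those of days 3 and 9 lay between KO and WT and overlapped each other. SNAI1 was 2.91 times the WT level in KO (log2 change 1.54, SE 0.14, adjusted p = 1.18e-08). At day 1 the difference from KO was -0.34 on the log2 scale and missed the threshold (95% interval -0.63 to -0.05, adjusted p = 0.125). It came to -0.18 (adjusted p = 0.423) without day 1 replicate 1, which was the lowest of the day 1 libraries for SNAI1 and stands apart across all genes. By day 3 SNAI1 was at 0.557 times the KO level (log2 change -0.85, adjusted p = 0.000109), and at day 9 it was at 0.56 times (log2 change -0.84, adjusted p = 0.000111). Days 9 and 3 differed by 0.01 (95% interval -0.28 to 0.30). At day 9 it remained 1.63 times the WT level (log2 change 0.70, adjusted p = 0.000845). Its group means were 296% of WT in KO, 235% at day 1 and 164% at both day 3 and day 9.

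ZEB1, a zinc finger and homeobox repressor of CDH1, was counted at the edge of detection. Its values were 4.0, 6.0 and 4.0 in KO, 11.1, 8.0 and 13 at day 1, 6.9, 8.9 and 9.9 at day 3, 12.9, 5.0 and 9.0 at day 9, and 10.0, 6.0 and 8.0 in WT. With so few counts the groups lie within a few reads of each other. It passed the filter of 10 in at least 3 libraries only through doxycycline libraries, 2 of day 1 and 1 of day 9. The WT value shown as 10.0 lay just under 10 before rounding. ZEB1 was thus tested only because of values in groups that its comparisons with KO set against KO. No comparison passed the threshold: the log2 change was -0.66 in KO against WT (95% interval -1.39 to 0.06, adjusted p = 0.12), 1.04 at day 1 against KO (0.32 to 1.77, adjusted p = 0.058) and 0.75 at day 9 against KO (adjusted p = 0.123). Without day 9 replicate 2, the last of these became 1.08 and passed (adjusted p = 0.0349). Among the 4 members whose windows were searched (FN1, VIM, TCF4 and ZEB1), ZEB1 alone holds the E-box that its own protein and the SNAI proteins bind. Of its 7 windows 2 hold matches, beside 20.6% of all windows, 1 window with 1 match and the other with 3. Shown are the 3 sites whose 30 bases lie wholly before the start of their own window. They are on the plus strand of GRCh38.p14 at chr10:31318348-31318377, chr10:31318966-31318995 and chr10:31319119-31319148. Counted from the start site of their window, the matches begin at -57, -242 and -85. The 6 matching bases are in capitals.
ZEB1 site at -57: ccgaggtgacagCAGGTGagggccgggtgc
ZEB1 site at -242: ccccaccaCACCTGaggaaaacttttccct
ZEB1 site at -85: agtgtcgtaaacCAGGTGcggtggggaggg
In every ZEB1 window the part before the start overlaps an annotated exon. Windows of other ZEB1 starts end at 31318466 and 31318867, before the sites at -242 and -85, so these sites lie after those starts. The matches describe the letters of the windows and say nothing of whether a protein sits there.

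CDH1, which encodes E-cadherin, was raised in KO and stayed raised for 3 days of doxycycline before it dropped. KO libraries had 19268.7, 19653.6 and 19212.7 normalized counts, day 1 libraries 20780.5, 20925.7 and 21228.6, and day 3 libraries 20613.5, 20761.3 and 20612.7. At day 9 the values were 16070.3, 15339.1 and 15766.9, and in WT they were 14653.1, 14573.1 and 14778.2. The 5 groups fell into a high set (KO, day 1, day 3) and a low set (day 9, WT) with no library between them. In KO it was 1.32 times the WT level (log2 change 0.40, SE 0.03, adjusted p = 1.3e-09). Day 9 was 0.811 times the KO level (log2 change -0.30, adjusted p = 3.04e-07) and 0.761 times the day 3 level (log2 change -0.39, SE 0.03, 95% interval -0.46 to -0.33, adjusted p = 5.75e-08). The last comparison lies within 1 project code. In these comparisons the calls were kept without any 1 library. The summed epithelial markers were also lower at day 9 than at day 3, as given above, but that sum is mostly KRT8 and KRT18. KRT8 averaged 56566.0 at day 3 and 36189.2 at day 9, and EPCAM 11313.3 and 10448.0. CLDN7 alone of the 5 markers went the other way, from 2646.5 to 3034.2. The part of these markers in the CDH1 difference was not tested.

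The smaller CDH1 differences depended on single libraries. The log2 change was 0.11 at day 1 against KO (adjusted p = 0.0218) and 0.09 at day 3 against KO (adjusted p = 0.0324). It was 0.10 at day 9 against WT (adjusted p = 0.0258). The call at day 1 was lost without KO replicate 1, KO replicate 3 or day 1 replicate 3 (adjusted p = 0.081 to 0.0876) and in a fit to the 9 libraries of the first project code (adjusted p = 0.053). At day 3 it was lost without KO replicate 1 or 3 or any 1 day 3 library (adjusted p = 0.0696 to 0.101) and after scaling to equal medians (adjusted p = 0.0694). At day 9 against WT it was lost without any 1 WT library or without day 9 replicate 1 or 3 (adjusted p = 0.0601 to 0.0882), and after scaling to equal medians (adjusted p = 0.0769).

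GRHL2, the grainyhead factor that activates CDH1, did not differ between KO and WT past the threshold. It had 1450.9, 1492.0 and 1384.4 normalized counts in KO, 1596.6, 1613.1 and 1622.9 at day 1, 1597.7, 1553.3 and 1616.2 at day 3, 1565.6, 1472.4 and 1424.0 at day 9, and 1506.0, 1431.5 and 1523.0 in WT. Days 1 and 3 lay above every KO and WT library, and day 9 overlapped both. The log2 change was -0.04 in KO against WT (95% interval -0.14 to 0.05, adjusted p = 0.458). At day 1 GRHL2 was 0.16 above KO (adjusted p = 0.0316) and at day 3 it was 0.14 above KO (adjusted p = 0.0305). The call at day 1 was lost without KO replicate 1 or 3 or day 1 replicate 2 or 3 (adjusted p = 0.059 to 0.149) and with the first project code alone (adjusted p = 0.054). The call at day 3 was lost without KO replicate 1 or 3 or day 3 replicate 1 or 3 (adjusted p = 0.0632 to 0.146). At day 9 the difference from KO was 0.04 (adjusted p = 0.551).

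The epithelial splicing regulators moved in opposite directions in KO, both by small amounts. ESRP2 had 3197.8, 3305.5 and 3313.3 normalized counts in KO and 2759.8, 2880.1 and 2925.6 in WT, with no overlap (log2 change 0.20, SE 0.05, adjusted p = 0.00491). ESRP1 had 594.9, 566.3 and 564.3 in KO and 616.9, 641.3 and 665.5 in WT, again with no overlap (log2 change -0.16, SE 0.06, adjusted p = 0.0258). The ESRP1 call was lost without KO replicate 2 or 3 or WT replicate 2 or 3 (adjusted p = 0.064 to 0.111). In the authors' deposited table its adjusted p was 0.0864. No comparison of a doxycycline group with KO passed the threshold for either gene. ESRP2 averaged 3260.4 ± 305.4 at day 1, 3444.4 ± 125.3 at day 3 and 3201.9 ± 103.5 at day 9, and ESRP1 averaged 566.7 ± 10.6, 565.5 ± 24.3 and 592.4 ± 18.7 on the same days (SD, n = 3 each). Against KO the day 9 difference was -0.03 for ESRP2 (95% interval -0.14 to 0.08) and 0.04 for ESRP1 (95% interval -0.07 to 0.16). Against WT at day 9, ESRP2 was 0.17 higher (adjusted p = 0.033), a call lost without any 1 WT library or without day 9 replicate 1 or 2 (adjusted p = 0.0502 to 0.136). ESRP1 was -0.11 from WT at day 9 (adjusted p = 0.163). Counts per gene do not show the splice forms that these proteins set.

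VIM and FN1, the mesenchymal readouts, showed no difference past the threshold between KO and WT. VIM stood at 12, 4.0 and 11.9 normalized counts in KO, at 5.9 to 12.1 in the 9 doxycycline libraries, and at 12, 7.0 and 14.9 in WT. A vimentin transcript was thus barely counted in any group, and the intervals are wide: the log2 change was -0.33 in KO against WT (95% interval -1.12 to 0.46) and 0.10 at day 9 against KO (-0.69 to 0.89). FN1 had 97.7, 72.7 and 91.6 in KO, 116.9, 120.2 and 108.7 at day 1, 117.8, 85.5 and 94.5 at day 3, 83.6, 93.2 and 83.6 at day 9, and 96.7, 91.9 and 91.5 in WT. Its day 1 libraries lay above all KO and WT libraries. The log2 change of FN1 was -0.11 in KO against WT (95% interval -0.38 to 0.16) and 0.41 at day 1 against KO (SE 0.13, adjusted p = 0.0483). That call was lost without KO replicate 2 or 3 or any 1 day 1 library (adjusted p = 0.0632 to 0.25) and with the first project code alone (adjusted p = 0.0501). At day 9 FN1 differed from KO by 0.00 (95% interval -0.27 to 0.27). ZEB1 and VIM each have a neighbouring antisense gene (ZEB1-AS1, VIM-AS1), and the sources used here do not name the strand setting of the counting.

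**Figure D3:**
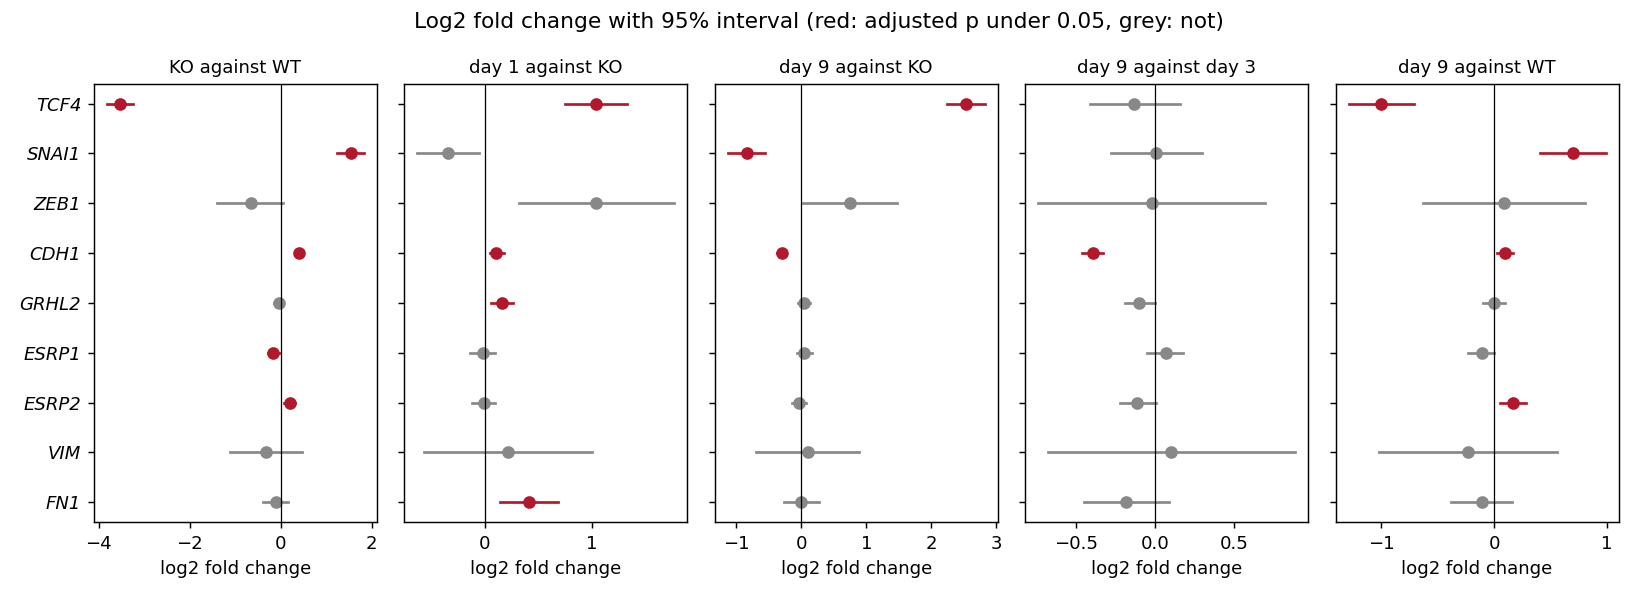
Log2 fold change of value + 1 (x axis, its own scale in each panel) with its 95% interval for the 9 genes (rows) in 5 comparisons, red where the adjusted p is under 0.05 and grey where it is not. TCF4 and SNAI1 lie on opposite sides of 0 in KO against WT (-3.53 and 1.54) and in day 9 against KO (2.53 and -0.84), and CDH1 is the 1 red point in day 9 against day 3 (-0.39).

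Other EMT transcription factors were mixed in KO against WT: of 17 listed genes 12 were in the table and 11 were tested, with 4 higher and 6 lower and a median log2 change of -0.39, beside 49.7% of all genes called and a median of 0.00. TWIST1, TWIST2, ZEB2, PRRX1, FOXC2 and GSC, which include the best known inducers of EMT, were among those not tested. SOX9, an intestinal progenitor factor, averaged 8549.2 ± 287.5 in KO and 6521.3 ± 160.2 in WT (log2 change 0.39, adjusted p = 2.69e-06). FOXQ1, a forkhead factor, averaged 1289.8 ± 59.9 in KO and 1894.5 ± 44.3 in WT (log2 change -0.56, adjusted p = 6.35e-07). ID3, an inhibitor that binds E proteins such as TCF4, fell in KO too, to 827.4 ± 64.3 against 1444.3 ± 81.1 in WT (log2 change -0.80, adjusted p = 9.12e-05), and at day 9 it was still 0.94 log2 units lower than in WT (-0.94, adjusted p = 8.32e-05). KLF8 was listed at 0 in KO, as above. At day 1 against KO none of the 11 was called, where 10.9% of all genes were, a share that comes to about 1 in 11. HMGA2, a chromatin factor upstream of SNAI1 in mouse mammary cells, was at -0.01 there. By day 9 HMGA2 averaged 576.5 ± 25.9, against 452.4 ± 35.6 in KO (log2 change 0.35, adjusted p = 0.000999), and FOXQ1 averaged 1605.8 ± 99.9, against 1289.8 ± 59.9 in KO (log2 change 0.32, adjusted p = 0.00121). Including KLF8, 3 were higher and 1 (SOX9, log2 change -0.18) was lower at day 9, beside 25.9% of all genes called.

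Epithelial transcription factors other than GRHL2 were mostly raised in KO, and mostly lower again at day 9. Of 16 listed, 13 were tested, with 9 higher and 2 lower (OVOL2 and KLF4) in KO against WT and a median of 0.34, beside 24.8% of all genes called in each direction. ELF3, an epithelial ETS factor, averaged 3593.0 ± 250.9 in KO and 1139.4 ± 31.9 in WT (log2 change 1.65, adjusted p = 6.64e-11). GRHL3, a relative of GRHL2, averaged 3177.9 ± 160.0 in KO and 1450.4 ± 49.5 in WT (log2 change 1.13, adjusted p = 4.09e-12). The grainyhead relatives thus had different values in the same libraries, 1.13 for GRHL3 and -0.04 for GRHL2, a difference between genes that was not itself tested. OVOL1, a zinc finger factor that represses ZEB1 in other systems, averaged 552.3 ± 34.2 in KO and 256.2 ± 12.8 in WT (adjusted p = 7.88e-09), and KLF5 of crypt epithelium averaged 5952.0 ± 217.6 in KO and 3679.5 ± 216.1 in WT (log2 change 0.69). Day 1 called 3 lower than KO and none higher (ELF3 -0.41, KLF5 -0.20 and EHF), beside 5.97% of all genes called lower. Day 9 called 8 lower and 2 higher against KO, beside 13.4% and 12.4% of all genes, with ELF3 at 1410.4 ± 51.3 (log2 change -1.35, adjusted p = 3.41e-09) and GRHL3 at 2043.4 ± 154.9 (log2 change -0.64, adjusted p = 9.83e-08). Within the second project code, ELF3, GRHL3, GATA6 and OVOL1 were lower at day 9 than at day 3, ELF3 by a log2 change of -0.77 (adjusted p = 1.8e-05).

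Most junction and surface genes of the epithelium were higher in KO than in WT, and none was called higher at day 9 than at day 3. All 38 were tested, and 24 were higher and 3 lower in KO against WT, with a median of 0.30, beside 24.8% of all genes called in each direction. KRT18, a simple epithelial keratin, averaged 45846.6 ± 1124.3 in KO and 27578.6 ± 33.3 in WT (log2 change 0.73, adjusted p = 2.63e-11). OCLN, the tight junction protein occludin, averaged 734.5 ± 12.9 in KO and 379.5 ± 13.3 in WT (log2 change 0.95, adjusted p = 3.97e-11), and SPINT1, an inhibitor of surface proteases, averaged 12022.7 ± 403.1 in KO and 6461.0 ± 91.3 in WT (log2 change 0.90). KRT20, the keratin of differentiated colonocytes, went the other way and was listed at 0 in all 3 KO libraries, at 0.0, 6.0 and 1.0 at day 1, at 62.4, 72.5 and 55.7 at day 3, at 38.8, 37.7 and 41.8 at day 9, and at 229.2, 193.8 and 170.1 in WT. It is 1 of the 46 KO-silent genes. Day 1 against KO called 5 junction genes higher and 3 lower, beside 10.9% of all genes called. Day 3 against KO called 5 higher and 8 lower, 13 of 38, near the 27.4% of all genes called. Day 9 against KO called 3 higher and 18 lower, with a median of -0.20, beside 12.4% and 13.4% of all genes. Day 9 against day 3 called none higher and 12 lower, beside 3.03% and 4.39% of all genes, with KRT18 at 28288.6 ± 1358.0 at day 9 and 43244.9 ± 2068.1 at day 3 (log2 change -0.61, adjusted p = 1.4e-08). KRT18 at day 9 no longer differed from WT past the threshold (log2 change 0.04, adjusted p = 0.628), whereas OCLN was still 0.46 higher (adjusted p = 7.81e-06).

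Of the tested catenins that tie E-cadherin to actin, CTNNA1 alone was called in KO against WT. Of 9 genes of the cadherin-catenin complex and its nectin partners 8 were tested, and 3 were higher and none lower in KO against WT, no larger a share than the 49.7% of all genes called. These were the nectins NECTIN1 (917.7 ± 76.8 in KO and 370.8 ± 6.9 in WT, log2 change 1.30) and NECTIN4 (421.8 ± 32.1 in KO and 203.0 ± 4.8 in WT, log2 change 1.05), which are adhesion receptors beside E-cadherin, and CTNNA1, or alpha-catenin, at a log2 change of 0.16 (adjusted p = 0.000725). CTNND1, p120-catenin, which stabilises E-cadherin at the membrane, was at -0.08 (adjusted p = 0.0754). Against KO, NECTIN1 averaged 551.3 ± 13.8 at day 9 (log2 change -0.73, adjusted p = 2.67e-08). CTNNB1, or beta-catenin, was called higher than KO at days 1, 3 and 9, while CDH1 was lower than KO at day 9. In this list 3 were higher and 1 lower at day 1 against KO, beside 10.9% of all genes called. At day 3 it was 3 higher and 2 lower, beside 27.4%, and at day 9 it was 1 higher and 2 lower, beside 25.9%. Day 9 against day 3 called 4 of the 8 lower and none higher, beside 4.39% and 3.03% of all genes, CTNNA1 by -0.21 (adjusted p = 0.000952).

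Mesenchymal genes were called in both directions. Of 34 listed, 28 were in the table and 24 were tested. In KO against WT 8 were higher and 10 lower, with a median of -0.12, beside 49.7% of all genes called. Higher in KO were S100A4, COL6A1, ITGAV, MYL9, COL5A2, ITGA5, CD44 and LOX, with log2 changes up to 2.67. CDH2, or N-cadherin, was among those lower in KO. It was called higher than KO at day 3 but not at day 9, and at day 9 it was lower than WT. Of the genes given values below, only CD44 was higher in KO than in WT (log2 change 0.14, adjusted p = 0.00784). At day 9 against KO, 12 of the 24 were higher, 4 were lower and 8 were not called, with a median of 0.21, beside 12.4% of all genes called higher and 13.4% lower. TNC, the matrix protein tenascin C, had 38.9, 31.9 and 28.9 normalized counts in KO, 79.6, 62.1 and 66.8 at day 1, 204.9, 186.8 and 181.0 at day 3, 314.5, 301.4 and 318.4 at day 9, and 637.9, 663.3 and 669.5 in WT. No 2 groups overlapped, and the values stand in the order of days between KO and WT. The log2 change of TNC was -4.28 in KO against WT (adjusted p = 1.2e-17), 1.05 at day 1 against KO (adjusted p = 2.74e-06) and 0.70 at day 9 against day 3 (adjusted p = 0.000293). TGFBI, a secreted matrix protein induced by TGF-beta, averaged 1655.5 ± 44.0 in KO, 1956.0 ± 39.0 at day 1, 2485.8 ± 30.1 at day 3, 3024.7 ± 61.6 at day 9 and 3580.5 ± 49.6 in WT, with the same order. NT5E, the surface enzyme CD73, averaged 1298.1 ± 35.5 in KO, 1273.7 ± 23.8 at day 1, 1842.9 ± 62.4 at day 3, 2115.2 ± 28.8 at day 9 and 3211.7 ± 63.1 in WT, without a difference past the threshold at day 1 (log2 change -0.03). TPM2, a tropomyosin, was listed at 0 in the KO libraries and at 0.0, 0.0 and 1.0 at day 1. It averaged 10.3 ± 1.1 at day 3, 9.6 ± 2.1 at day 9 and 36.9 ± 7.8 in WT. These values resemble the pattern of the KO-silent genes, though its WT level was below the limit of 50 for that set. TPM2 is among the 12 genes called higher at day 9, and the part of that pattern in its call was not tested. CD44, an adhesion receptor whose splicing the ESRP proteins control, stayed lower than in KO on each day, by log2 changes of -0.33, -0.36 and -0.37 at days 1, 3 and 9, with 2032.8 ± 71.8 at day 9 and 2622.3 ± 62.9 in KO. COL1A2, COL3A1, POSTN, FAP and THY1, which mark fibroblasts and mesenchymal tumour cells, were among the genes not tested.

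Among 12 splicing partners and targets of the ESRP proteins, all tested, 6 were higher and 1 lower in KO against WT, with a median of 0.13. These 7 of 12 stand near the 49.7% of all genes called there. ENAH, an actin regulator with an epithelial splice form, averaged 2571.9 ± 84.4 in KO and 1540.8 ± 66.8 in WT (log2 change 0.74, adjusted p = 1.26e-09). QKI, an RNA binding protein that favours mesenchymal splice forms, averaged 277.8 ± 18.3 in KO and 164.8 ± 4.4 in WT (log2 change 0.75, adjusted p = 4.21e-06). HNRNPM, which competes with ESRP1 on CD44 RNA, was at 0.23 (adjusted p = 5.19e-05), and RBFOX2, another regulator of EMT splicing, was at -0.16 (adjusted p = 0.00298). Day 1 against KO called 3 higher and 1 lower, beside 10.9% of all genes called. Day 9 against KO called none higher and 6 lower, beside 12.4% and 13.4% of all genes, with ENAH at 1889.3 ± 82.3 (log2 change -0.45) and QKI at 198.5 ± 34.2 (log2 change -0.49, adjusted p = 0.00109).

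**Figure D4:**
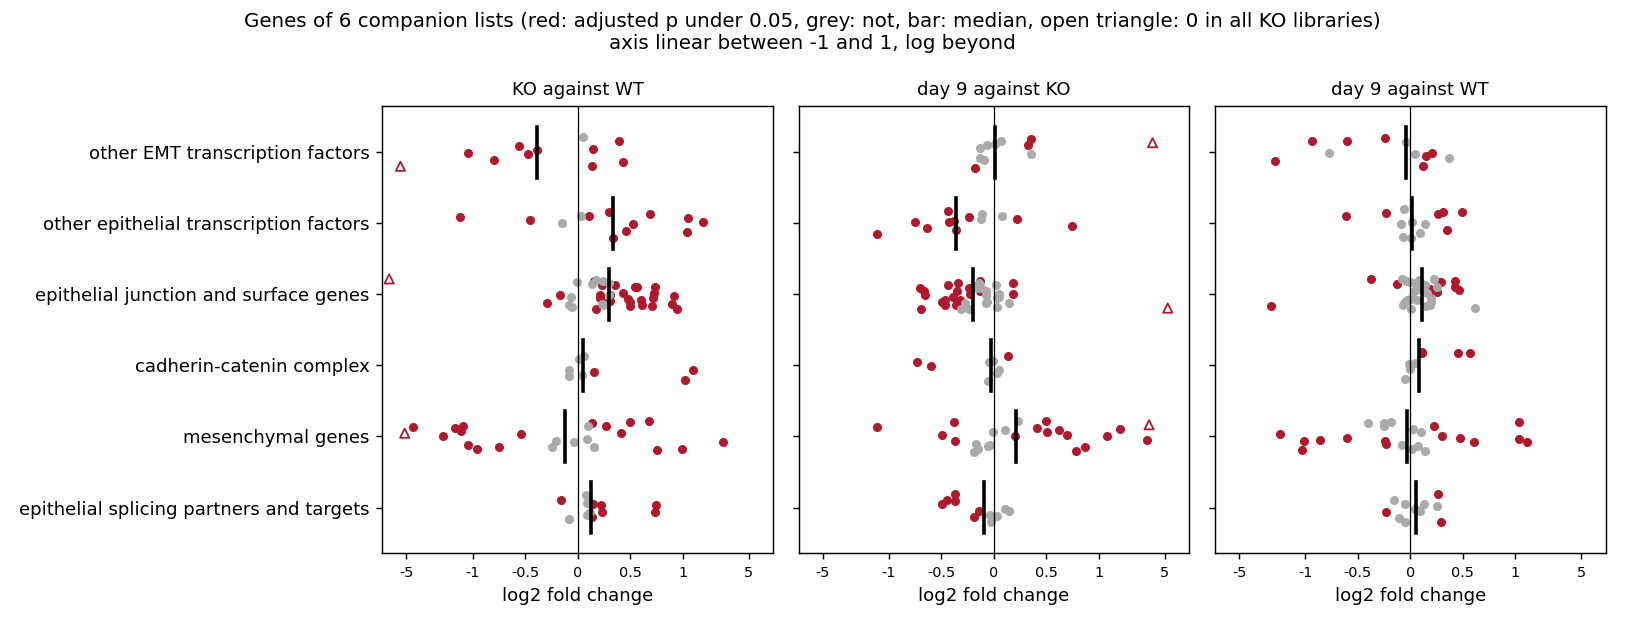
Log2 fold change (x axis, linear between -1 and 1 and log beyond) of every tested gene (points) in 6 companion lists (rows), for KO against WT, day 9 against KO and day 9 against WT, red where the adjusted p is under 0.05, with the list median as a bar. Open triangles are KLF8, KRT20 and TPM2, at 0 in all KO libraries, whose positions depend on the added 1. The junction genes have a median of 0.30 in KO against WT and -0.20 in day 9 against KO.

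The genes whose pattern over the 15 libraries lay nearest to a member were found by the root mean square difference of centred log2 values, for the 3 members whose group means span at least 1 log2 unit (TCF4 3.53, SNAI1 1.54 and ZEB1 1.04) with candidates limited to genes averaging 50 or more. Nearest to TCF4 were KLHL4, a kelch family gene, at 0.25, and AKR1C3, an aldo-keto reductase, at 0.35. KLHL4 averaged 42.5 ± 3.1 in KO, 97.5 ± 7.3 at day 1, 303.8 ± 33.5 at day 3, 291.2 ± 28.7 at day 9 and 721.7 ± 49.7 in WT. Its means stand in the order of the TCF4 means, with days 3 and 9 close together in both. KLHL4 was picked for nearness over these same libraries, so the shared order largely follows from the choice and is not a separate result. Nearest to SNAI1 were GAL, the galanin neuropeptide, and PACSIN3, an endocytic adaptor, both at 0.12. GAL averaged 753.1 ± 73.0 in KO, 588.9 ± 72.8 at day 1, 420.2 ± 36.9 at day 3, 421.5 ± 16.6 at day 9 and had 287.0, 283.7 and 309.4 in WT. PACSIN3 averaged 820.8 ± 46.2 in KO, 645.5 ± 113.3 at day 1, 458.6 ± 46.3 at day 3, 500.9 ± 29.6 at day 9 and 290.7 ± 11.9 in WT. In both, as in SNAI1, day 1 replicate 1 was the lowest of the day 1 libraries. The genes were picked over libraries that include this one, which stands apart across all genes, so the shared low value is not a separate result. Nearest to ZEB1 were SULT1C3 at 0.26 and COLQ at 0.3, a likeness that rests on ZEB1 values of 13 or less.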

How the data were processed

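Gene expression was measured by RNA-seq of poly(A) RNA in 15 DLD1 libraries, 3 in each of 5 groups taken from the sample titles. The labels call the replicates biological without stating separate cultures, so p-values reflect how far these libraries vary, possibly for technical reasons alone. Per the submitters' processing notes, HISAT2 2.1.0, HTSeq, DESeq2 and build hg19 were used. The sources used here give no annotation and no strand setting. Each library's deposited column holds normalized counts, a signal that the authors made by dividing counts by a size factor. In each library 100% of values were whole multiples of 1 step (0.99 to 1.007, tolerance 1e-06). The authors also deposited log2 fold changes and adjusted p-values, used here as an alternative.

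Of 22706 genes, 22463 were matched to a symbol through their Ensembl IDs, and 1 gene with text in a value cell was dropped. The filter on low values (10 or more in 3 or more libraries) left 15134 genes. Their log2(value + 1) entered a linear model in R 4.3.3 with limma 3.58.1 and statmod 1.5.0, which took all 15 libraries, estimated a mean for each group and used trended, robust eBayes. Adjusted p is two-sided, Benjamini-Hochberg over all genes tested, threshold 0.05. Log2 fold changes had a median SE of 0.087. Tested on simulated counts of 15134 genes (KO against WT), the fit recovered 32 of 50 genes changed 1.25-fold, 48 of 50 at 1.5-fold and 50 of 50 at 2-fold and at 4-fold. Changed genes were drawn from those averaging 50 or more, and all genes had the same spread setting with no outlying library. The recovery therefore does not cover low genes such as ZEB1 and VIM, or a library that stands apart. The planned count test was not run, because the table holds normalized values and steps this close to 1 could not be taken as recovered reads.

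Members and companion lists were chosen with earlier results of these data known. Named genes are all members, up to 4 genes of each list with the lowest adjusted p in KO against WT, up to 2 in day 9 against KO, and the 2 nearest in pattern to TCF4, SNAI1 and ZEB1. Other genes are named as parts of a short count or as not tested, after their values were seen. Promoter windows are from RefSeq, GRCh38.p14, another build than that of the files. Of the members tested, 4 had windows (FN1, VIM, TCF4 and ZEB1). CDH1, SNAI1 and ESRP2 had none, and ESRP1 and GRHL2 were left out of the search. Noise between replicates was the median over genes of their squared difference divided by their sum, as a ratio to the median that counting gives. Genes with a mean of at least 50 were used. Tables and plots were made with numpy 2.4.6, pandas 2.3.3 and matplotlib 3.10.9 under Python 3.11.15.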

Additional observations from a re-analysis of the deposited data

Results flagged for a closer look

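Against KO, the log2 change of CDH1 was -0.30 at day 9 and 0.09 at day 3. The small day 3 call was lost without KO replicate 1 or 3, without any 1 day 3 library and after scaling to equal medians. In both comparisons with KO, time and project code cannot be told apart. The test of the difference itself, day 9 against day 3 within 1 project code, gave a log2 change of -0.39 (limma adjusted p = 5.75e-08). The 3 day 9 libraries (15339.1 to 16070.3 normalized counts) all lay below the 3 day 3 libraries (20612.7 to 20761.3). Without any 1 library the value lay between -0.41 and -0.38. USP7 itself differed over the same interval, at 4787.9 ± 335.7 at day 9 and 7827.9 ± 341.2 at day 3 (SD, n = 3 each). Its part in the CDH1 difference was not tested. Groups of 3 are too small for a test of single outlying libraries.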

How the results depend on the processing

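No value past the threshold changed sign under any setting run, while 33 values past it in neither fit did. The calls of TCF4 in the 6 comparisons where it was called, of SNAI1 in KO, day 3 and day 9, and of CDH1 in KO against WT, day 9 against KO and day 9 against day 3 were kept under every setting. Day 1 against KO was the least stable comparison: its 4 called members became 2 with no filter on low values, 1 with only the 2 groups in the fit and 1 in the fit to the first project code (a setting added after seeing the data), and its 1650 called genes became 632 with only the 2 groups. The cause was not tested. Leaving out single libraries gave 955 to 2416 genes and 1 to 3 members at day 1 against KO, the highest gene count without day 1 replicate 1. It gave 2 to 4 members at day 3 against KO, 2 to 3 members at day 9 against WT, and 628 to 927 genes, against 1123, at day 9 against day 3. Fewer samples raise the standard error, and where an arm kept 2 libraries the pooled spread was used. With the replicate number as a block, 7936 genes were called in KO against WT and 1969 at day 1 against KO, the member counts were within 1 of those given, and GRHL2 at day 1 against WT reached an adjusted p of 0.0489 (0.0537 without the block). Whether the numbers pair some of the samples was not settled. Of 30 same-numbered pairs, 6 had correlated deviations over 0.1 (range -0.061 to 0.252), and differently numbered pairs were not compared. A count test was planned and not run. With 3 libraries per group and values of 4.0 to 14.9, ZEB1 and VIM were too low for small changes to be detectable.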

Other observations

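Intestinal genes measured beside the EMT genes were not uniform. LGALS4, a colonocyte galectin, averaged 412.2 ± 31.2 normalized counts in KO, 237.9 ± 64.7 at day 1, 116.8 ± 8.6 at day 3, 119.3 ± 20.6 at day 9 and 23.6 ± 1.5 in WT (SD, n = 3 each), and VIL1, the brush border protein villin, averaged 2097.2 ± 163.7 in KO, 2131.2 ± 105.9 at day 1, 1155.2 ± 32.5 at day 3, 1595.0 ± 86.1 at day 9 and 539.2 ± 19.3 in WT. CDH17, the liver-intestine cadherin, went against CDH1 and averaged 3089.6 ± 114.3 in KO, 2990.8 ± 15.5 at day 1, 2790.2 ± 143.1 at day 3, 2931.3 ± 90.9 at day 9 and 3778.5 ± 188.8 in WT. No KO or doxycycline library of CDH17 reached the lowest WT library (3629.3). The day 1 libraries of VIL1 overlapped those of KO, and its day 9 libraries lay above those of day 3. These genes were read as marker lists and were chosen for mention here after their values were seen.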
